A study of Mus musculus with 36 samples.

Results

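The AP-1 transcription factors measured here were the 8 genes Fos, Fosb, Fosl1, Fosl2, Jun, Junb, Jund and Atf3, taken by name from the count tables of Lrig1 GL and Lgr5 GL mouse epidermal cells, where GL means genetically labelled. All 8 were present in both tables, which hold 20181 genes for Lrig1 GL and 22587 for Lgr5 GL cells, and all 8 passed the filter on low counts in both. The cells came from mice that carried Lrig1-EGFP-ires-CreERT2 or Lgr5-EGFP-ires-CreERT2 together with Rosa26-fl/STOP/fl-tdTomato. A single dose of hydroxytamoxifen on the tail skin switched on tdTomato in cells where the Lrig1 or the Lgr5 promoter was active, and the label then stayed in their progeny. At 0w, 1 week after labelling, the mice were 7 to 9 weeks old. They were of both sexes, and unwounded mice at 0w were the reference. A full-thickness 2 mm punch wound was made in the tail at 0w, and a second one over it at 8w. Names of later samples give the week and the wound. Those after the first wound are 1w pw1, 2w pw1, 4w pw1 as well as 8w pw1, while 1w pw2 is the week following the second. Each of the 12 groups held 3 libraries of 150 sorted tdTomato+ cells, 36 libraries in all. Libraries of a group are described as coming from separate mice. Every mouse carried the Cre and reporter alleles and received the drug. No unwounded group of a later age was among these libraries. Age and time since labelling thus run with the time after wounding and cannot be told apart from it. The sorted zone held both the wound bed and hair follicles at a distance from it, so a library mixes both.

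AP-1 is a dimer. Jun proteins (Jun, Junb, Jund) can pair with each other or with Fos proteins (Fos, Fosb and the products of Fosl1 and Fosl2, Fra-1 and Fra-2), and Atf3 is a related stress-induced protein that pairs with Jun proteins. Fos, Fosb, Jun, Junb and Atf3 are immediate-early genes, switched on within minutes by growth factors, stress or mechanical injury through MAP kinases, and their mRNAs are short-lived. In skin, AP-1 is known for its part in keratinocyte proliferation, differentiation and the early response to wounding. Enzymatic dissociation of a tissue can switch on the same genes.

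The promoters of Jun, Junb and Fos are shown because most results below turn on these genes. Each is the last 130 bases before the RefSeq start of the gene, 5′ to 3′ on the strand of the gene, in build GRCm38.p6. Capitals mark matches on either strand to TGACATCA, the AP-1 site variant of the Jun promoter, or to TGACG, the core of the cyclic AMP response element (CRE).
Jun, chr4:95052223-95052352, minus strand: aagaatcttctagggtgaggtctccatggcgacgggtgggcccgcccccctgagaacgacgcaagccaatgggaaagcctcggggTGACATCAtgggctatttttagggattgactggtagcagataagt
Junb, chr8:84978749-84978878, minus strand: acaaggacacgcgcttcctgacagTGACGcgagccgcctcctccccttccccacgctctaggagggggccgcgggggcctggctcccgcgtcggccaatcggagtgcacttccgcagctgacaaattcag
Fos, chr12:85473760-85473889, plus strand: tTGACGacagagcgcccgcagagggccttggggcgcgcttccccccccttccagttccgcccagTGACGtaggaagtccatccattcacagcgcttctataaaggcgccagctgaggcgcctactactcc
TGACATCA lay in the promoter of Jun alone among the 7 members with an entry in the RefSeq table, 45 to 38 bases before its start, and in 2.93% of all 32851 promoters searched over 250 bases before the start. TGACG was found in 4 of the 7 (Fos, Fosb, Junb and Atf3) and in 17.8% of all promoters. Within these 250 bases none of the 7 held TGACTCA, the consensus AP-1 site (4.46% of all promoters), or the full CRE TGACGTCA (1.55%), which contains TGACG. Nor did any hold a CArG box, the site of serum response factor (1.47%), there. Bases further upstream were not searched, so sites beyond them would be missed. The RefSeq window of Jund ended before its GENCODE start given below, and the windows of Fosl2 and Atf3 lay inside their GENCODE spans. These matches describe letters only.

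In GENCODE on GRCm38, Fos lies on chromosome 12 (85473890 to 85477273), Fosb on chromosome 7 (19302696 to 19310051), Fosl1 on chromosome 19 (5447547 to 5455946) and Fosl2 on chromosome 5 (32135801 to 32157842). Jun lies on chromosome 4 (95049034 to 95052222), Junb and Jund on chromosome 8 (84974484 to 84978718 and 70698949 to 70700616) and Atf3 on chromosome 1 (191170296 to 191218039). All values count reads on exons. The libraries were not stranded, so reads from a gene and an overlapping one cannot be told apart by strand. Exons of other genes overlapped 57.2% of the exon bases of Fosl1 (Ccdc85b), 52.6% of Jund (antisense Gm11175), 7.52% of Junb (Prdx2) and 7.28% of Jun (antisense Junos). The counting tool by default leaves such reads uncounted, which makes the levels of Fosl1 and Jund the least certain.

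Levels are given as CPM, the counts scaled to a common library size in CPM units after TMM normalisation. Total counts were 765252 to 3365666 in Lrig1 GL libraries and 1297798 to 6960537 in Lgr5 GL libraries, and 3 counts, taken as the detection floor, equal 1.01 to 3.39 CPM and 0.389 to 2.92 CPM respectively. The reads carry no molecular identifiers, so floors cover counting error only. The transcript Gm12415 alone held 12.04 to 52.1% of reads in the Lgr5 GL libraries. The 7 keratinocyte markers summed to 12133 to 29640 CPM in Lrig1 GL and 9933 to 32999 CPM in Lgr5 GL libraries. Fibroblast markers summed to 7.50 to 116 CPM in Lrig1 GL and 129 to 612 CPM in Lgr5 GL libraries, with Lum at a median of 0 or absent in both, and immune markers to 0 to 34.1 and 2.17 to 75.3 CPM. In bulk samples, fewer cells of a type and less RNA per cell cannot be told apart. The gene Lrig1 stood at 217 CPM in its own population and 78.6 CPM in the other at 0w, and the gene Lgr5 at 137 and 438 CPM. A gene was called at an adjusted p under 0.05 of edgeR's quasi-likelihood test over all genes. With 3 libraries against 3, an exact permutation test of 1 gene cannot give a two-sided p below 0.1.

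Before injury, Junb was the most abundant AP-1 mRNA per length in both populations. At 0w it stood at 149 ± 17.5 CPM per kb of unshared exon in Lrig1 GL cells and at 149 ± 16.8 in the Lgr5 GL population (SD, n = 3), and in each population its lowest library lay above the highest of the next gene, Jun, at 56.9 ± 36.7 and 62.6 ± 14.5 CPM per kb. In Lrig1 GL cells Jun, Fos, Fosl2 and Jund followed at means of 56.9 to 30.7 CPM per kb, and each overlapped the next. Fosb and Atf3 came far below Jund at 4.15 and 3.72 CPM per kb, and Fosl1 had no reads. The order in Lgr5 GL cells had Jun clear of Fosl1 (24.3 CPM per kb), which overlapped Jund (23.6), Fosl2 (17.4) and Fos (16.2), while Fosb (0.5004) and Atf3 (0.131) were again lowest.

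Fosl1 was the single member called as different between the populations before injury. It had 0 counts in all 3 Lrig1 GL libraries at 0w and 82, 33 and 110 counts (18.6, 6.85 and 37.9 CPM) in the 3 Lgr5 GL libraries. The groups did not overlap, and Lgr5 GL cells were at least 53.8-fold higher against a floor of 3 counts over the Lrig1 GL group (adjusted p = 0.0133, edgeR), where 2.90% of all 16153 genes were called. Without Lrig1 GL replicate 1 the adjusted p was 0.0586, and in the other 35 fits that left out a library it stayed under 0.05. Fibroblast markers summed to 12.3 to 45.5 CPM in Lrig1 GL and 254 to 612 CPM in Lgr5 GL libraries at 0w. Over all time points Vim was the highest of them in Lgr5 GL and Dcn in Lrig1 GL libraries. Of 5 markers tested at 0w, Vim, Col1a1 and Col1a2 were called lower in Lrig1 GL cells. The part of these markers in the result was not tested. The other 7 members were not called. Of these, Atf3 came nearest (7.11 CPM in Lrig1 GL cells against 0.314 CPM in the Lgr5 GL population in the joint scaling, adjusted p = 0.216), with 0, 4 and 35 counts in the 3 Lrig1 GL libraries.

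**Figure D1:**
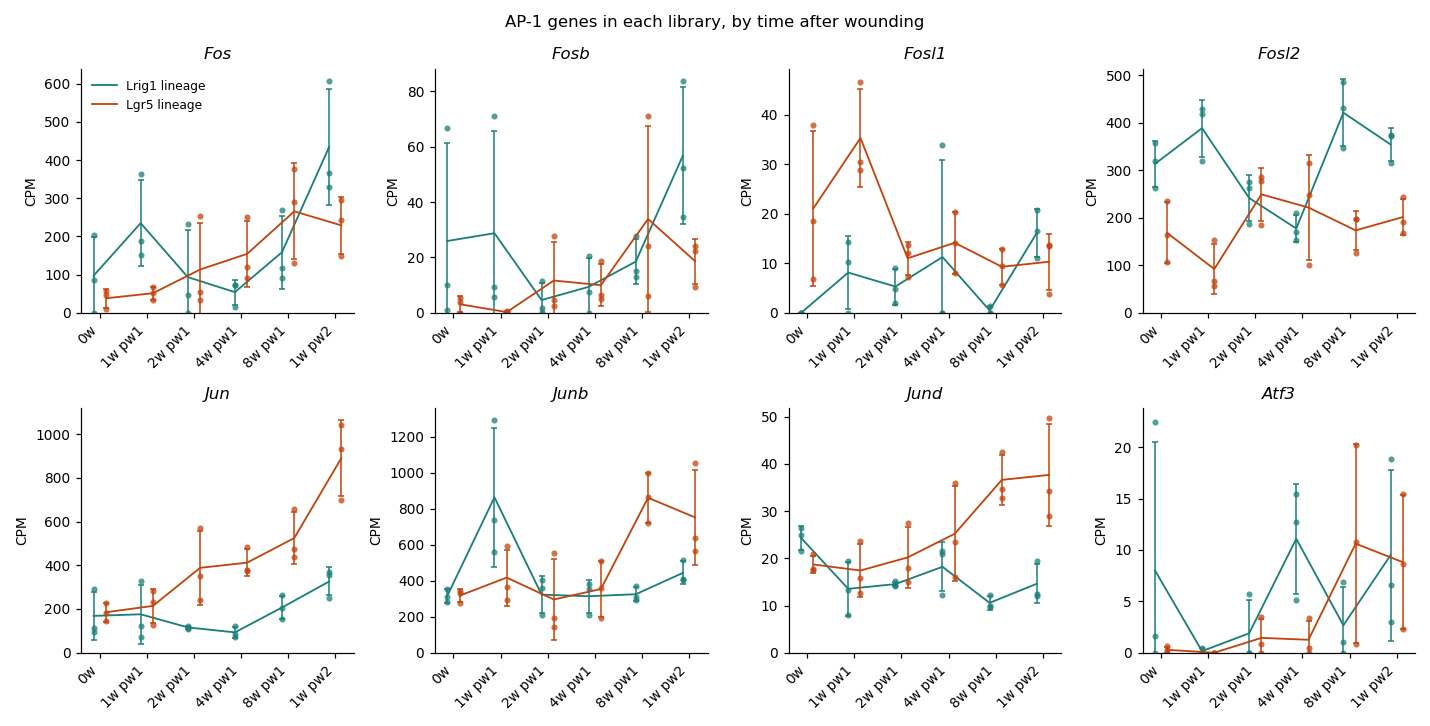
CPM (vertical axis, linear) of the 8 AP-1 genes at the 6 time points (horizontal axis). Points are libraries, lines join the means of 3 libraries and bars are ± SD (cut at 0), teal for Lrig1 GL and orange for Lgr5 GL cells. Jun in Lgr5 GL cells runs from 143 to 229 CPM at 0w and from 698 to 1042 CPM at 1w pw2, and Junb in Lrig1 GL cells is highest at 1w pw1 (558 to 1296 CPM).

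Jun, whose product is the founding AP-1 subunit, changed over the time course in Lgr5 GL cells (adjusted p = 0.00955, edgeR test over the 5 coefficients against 0w). It stood at 183, 229 and 143 CPM at 0w and at 128, 232 and 282 CPM at 1w pw1. It then read 572, 351 and 242 CPM at 2w pw1 and 379, 373 and 484 CPM at 4w pw1. At 8w pw1 it read 477, 659 and 439 CPM, and at 1w pw2 932, 1042 and 698 CPM. From 2w pw1 on, every library lay above every 0w library, and the 3 libraries at 1w pw2 lay above all the others of the population. The 7 keratinocyte markers summed to 24153 to 32999 CPM at 0w, 11950 to 20577 CPM at 2w pw1 and 9933 to 12770 CPM at 4w pw1, where Krt15 and Col17a1 were called lower than at 0w, and their part in the result was not tested. At 8w pw1 the sum was 28497 to 30084 CPM, within the range of 0w. At 1w pw2 it was 20226 to 24346 CPM, against 26729 to 32519 CPM at 1w pw1. Of the 7 markers Krt14 alone was called between those 2 groups (lower at 1w pw2, adjusted p = 0.0111, edgeR), while 3 of 7 lay above 0. The part of the markers at 1w pw2 was not tested either. Jun was the single member called over the time course, where 1.19% of all 18025 genes were called, and 7 of 8 members had an unadjusted p under 0.05 against 16.9% of all genes. With surrogate variables as covariates no member was called over the time course.

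A week after each injury could be compared between the first and the second wound. Mice at 1w pw2 were also older and longer past labelling than those at 1w pw1, which cannot be told apart from the second wound. In Lgr5 GL cells Jun rose by 2.06 ± 0.34 on the log2 scale (SE) from 1w pw1 to 1w pw2, from 214 ± 78.5 to 891 ± 175 CPM (SD, n = 3), with an adjusted p of 0.0149 by edgeR, where 0.266% of all genes were called. The call was lost without 1w pw1 replicate 1 (adjusted p = 0.0774), without 1w pw2 replicate 1 (0.0565) and without 1w pw2 replicate 2 (0.0784), while the difference stayed between 1.79 and 2.32 over all 18 left-out libraries. Surrogate variables as covariates also ended it (1.83, adjusted p = 0.123). The libraries of these 2 groups also differed, with 17608 to 18908 genes detected at 1w pw1 and 19815 to 20839 at 1w pw2. The summed dissociation list described below was 1959 to 2430 CPM at 1w pw1 and 2669 to 3451 CPM at 1w pw2. Mean GC content and the share of Gm12415 overlapped. The part of these in the result was not tested. Of the other members, Fos, Fosb, Fosl2, Jund and Atf3 also lay higher at 1w pw2 in every library and Fosl1 lower in every library. None of them was called by edgeR's quasi-likelihood test, while DESeq2 called Fos (adjusted p = 0.0242), Fosb (0.000834), Jund (0.0469) and Atf3 (0.00493), and edgeR's likelihood ratio test called Fos, Fosb and Atf3. Together 6 members did not overlap on the higher side, against 13.7% of all genes, while the share for the lower side is not given here. These 6, and Fosl1 on the lower side, had an unadjusted p under 0.05 (11.1% of all genes higher, 5.68% lower). The Lrig1 GL libraries of Jun stood at 73.1, 124 and 330 CPM at 1w pw1 and at 355, 253 and 370 CPM at 1w pw2, which overlap (difference 0.88 ± 0.48, adjusted p = 0.611). The difference between the populations in this change was not called (-1.12 ± 0.59, adjusted p = 0.438, with 0.0557% of all genes called).

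Fos in Lgr5 GL cells was lowest before injury and at 1w pw1. It read 56.5, 10.6 and 46.9 CPM at 0w and 34.2, 67.4 and 52.4 CPM at 1w pw1, against 130, 377 and 290 CPM at 8w pw1 and 243, 296 and 148 CPM at 1w pw2. At 8w pw1 and 1w pw2 every library lay above every library of 0w and 1w pw1. Against 0w the fitted log2 differences were 2.81 ± 0.71 at 8w pw1 (adjusted p = 0.509) and 2.60 ± 0.71 at 1w pw2 (adjusted p = 0.579), and neither was called by edgeR's quasi-likelihood test. DESeq2 called both (adjusted p = 0.0136 and 0.0313), and edgeR's likelihood ratio test called the first (0.0427). The 2w pw1 libraries were split, with replicate a at 253 CPM and the others at 53.7 and 33.3 CPM.

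Fosb, a close relative of Fos, lay near the floor early on in Lgr5 GL cells. It had 17, 0 and 16 counts at 0w and 0, 1 and 1 counts at 1w pw1. It had 14, 292 and 161 counts at 8w pw1 (6.18, 71.2 and 24.3 CPM) and 187, 133 and 25 counts at 1w pw2 (24.2, 22.2 and 9.41 CPM). Both late groups lay above all libraries of the early ones, and within 8w pw1 replicate b was the high one. Its change between the weeks after the 2 wounds had an adjusted p of 0.0705 by edgeR's quasi-likelihood test, and was called by DESeq2 (0.000834) and by the likelihood ratio test (0.00237).

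Junb, an AP-1 subunit that often restrains Jun, showed a different order. Its Lgr5 GL libraries read 342, 333 and 276 CPM at 0w, 720, 865 and 999 CPM at 8w pw1 and 639, 1054 and 563 CPM at 1w pw2. The libraries of 8w pw1 and 1w pw2 lay above those of 0w, with log2 differences of 1.44 ± 0.45 (adjusted p = 0.648) and 1.25 ± 0.45 (adjusted p = 0.691). At 2w pw1 replicate a (555 CPM) again stood above the other 2 libraries (191 and 141 CPM), as it did for Fos, Fosb and Jun.

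Jund and Atf3 also had higher means in the late groups of Lgr5 GL cells, without a call by edgeR's quasi-likelihood test. Jund, a subunit that is usually expressed without a stimulus, averaged 18.7 ± 1.89 CPM before injury, 36.6 ± 5.23 at 8w pw1 and 37.7 ± 10.7 at 1w pw2 (SD, n = 3), and both late groups lay above 0w in every library (adjusted p = 0.775 and 0.712 by that test). Atf3 had 1, 3 and 0 counts at 0w and no count in any library at 1w pw1. It had 2, 44 and 134 counts at 8w pw1 and 18, 52 and 41 counts at 1w pw2. Its mean at 1w pw2, 8.81 CPM, was at least 30.4-fold higher than at 1w pw1 against the floor over the group (adjusted p = 0.0982 by the quasi-likelihood test, 0.00493 by DESeq2 and 0.00573 by the likelihood ratio test).

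Against 0w no member was called at any single time point in Lgr5 GL cells by edgeR's quasi-likelihood test. At 8w pw1, 6 of 8 members (Fos, Fosb, Jun, Junb, Jund and Atf3) had an unadjusted p under 0.05 and all 6 were higher, against 3.43% of all genes, and the same 6 did not overlap with 0w, against 6.49% of all genes. At 1w pw2 these 6 were again higher at an unadjusted p under 0.05 (3.64% of all genes) and without overlap (6.95%). At both time points 0% of the 18025 genes were called, with 1070 (5.94%) and 1157 (6.42%) at an unadjusted p under 0.05. Jun at 1w pw2 came nearest, with a log2 difference of 2.27 ± 0.35 and an adjusted p of 0.0690. Its side of the threshold changed with the method and with single libraries. DESeq2 called Jun and Fos at 1w pw2 and Jun and Fos at 8w pw1, and Jun at 1w pw2 was called without 1w pw1 replicate 1 (adjusted p = 0.0236), 2w pw1 replicate a (0.0271) or 2w pw1 replicate c (0.0365). The median log2 difference of the 8 members was 1.47 at 8w pw1 and 1.76 at 1w pw2, where the median of all genes was 0.01 and -0.00. Both comparisons share the 0w libraries.

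Earlier after the first wound fewer members of Lgr5 GL cells had an unadjusted p under 0.05. At 1w pw1, where 1.29% of genes were called, the median of the 8 members was 0.06 (all genes -0.08), 1 member was lower at an unadjusted p under 0.05 (Fosb; 11.8% of all genes were lower) and none was called by edgeR or DESeq2. At 2w pw1 Fos and Jun, and at 4w pw1 again Fos and Jun, were higher at an unadjusted p under 0.05 (5.43% and 5.58% of all genes, with 0% and 0.155% called). DESeq2 called Jun at 4w pw1 and no member at 2w pw1. Between 8w pw1, just before the second wound, and 1w pw2 only Jun had an unadjusted p under 0.05, at 525 ± 118 against 891 ± 175 CPM (log2 difference 0.76 ± 0.33, adjusted p = 1 by edgeR; 2.07% of all genes were higher at an unadjusted p under 0.05 and 0% were called). The other 7 members overlapped between these 2 groups, for which the share of all genes without overlap is not given here.

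**Figure D2:**
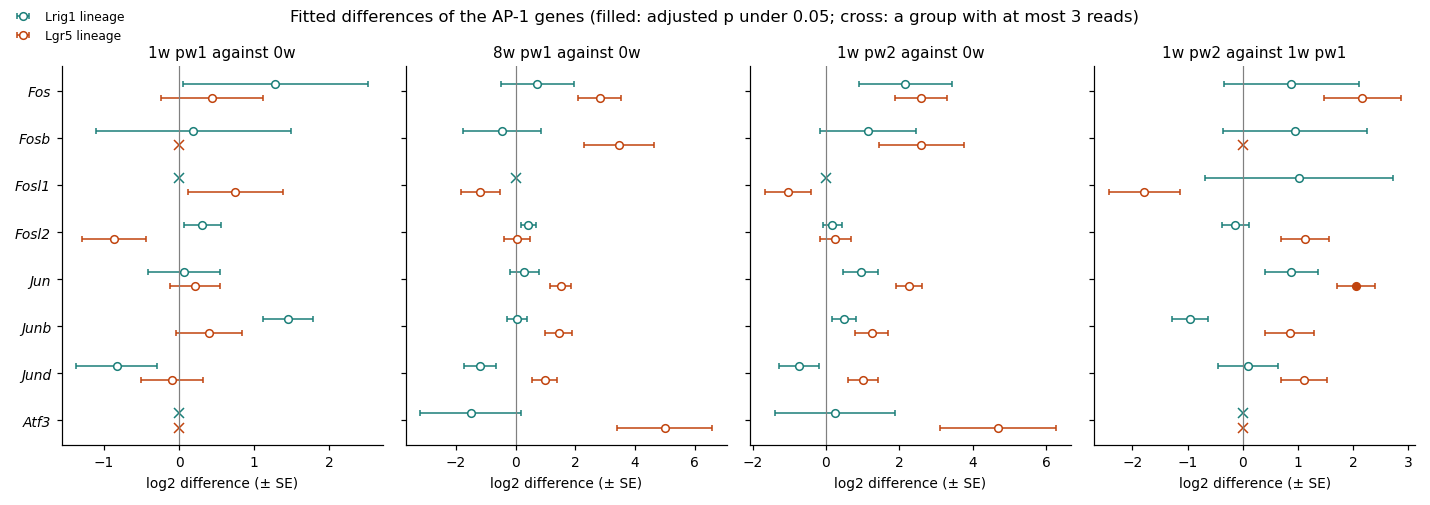
Fitted log2 differences (horizontal axis, ± SE) of the 8 AP-1 genes (vertical axis) in 4 comparisons, teal for Lrig1 GL and orange for Lgr5 GL cells. Filled points are called, and a cross at 0 marks a gene with at most 3 reads in 1 of the groups, for which no difference is drawn. Jun from 1w pw1 to 1w pw2 in Lgr5 GL cells (2.06) is the single filled point.

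The summed level of genes that respond to tissue dissociation was high in the same Lgr5 GL groups as the AP-1 genes, through some members of the list. The list of 18 such genes held no AP-1 member and contained Egr1, Ier2, Ier3 and heat shock genes. Its summed level was 1644 to 2480 CPM at 0w, 3081 to 3800 CPM at 8w pw1 and 2669 to 3451 CPM at 1w pw2, and at most 2430 CPM at 1w, 2w and 4w pw1. Every library of the 2 late groups stood above every other library of the population. Against 0w none of the 18 was called by edgeR at 8w pw1 or at 1w pw2. At 8w pw1 5 of 18 were higher at an unadjusted p under 0.05 (3.43% of all genes), with a median log2 difference of 0.23, and at 1w pw2 3 of 18 were (3.64%), with a median of 0.14. Over the time course 3 of 18 were called, against 1.19% of all genes. They were Ier2 (adjusted p = 0.0254), Hspb1 (0.0280) and Ier3 (0.0354), each highest at 8w pw1. Ier2 averaged 197 ± 37.6 CPM before injury, 688 ± 18.1 at 8w pw1 and 470 ± 165 at 1w pw2. Across the 18 libraries Pearson's r of log2 CPM with the summed list was 0.84 for Junb, 0.73 for Jund and 0.69 for Atf3. It was 0.55 for Fos, 0.55 for Jun, 0.47 for Fosb, 0.07 for Fosl2 and -0.40 for Fosl1. Libraries of a group share their time point, and each pair of values shares the library's depth. The part of dissociation in these levels was not tested. Mitochondrial reads (1.19 to 3.64% of counts) did not separate the late groups from 0w. At 1w pw2 the share of Gm12415 was 16.5 to 27.6% against 29.04 to 45.4% at 0w, the mean GC content weighted by counts was 48.785 to 49.05% against 47.3 to 48.761%, and 19815 to 20839 genes were detected against 18665 to 19642, all without overlap. Their part in the result was not tested.

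**Figure D3:**
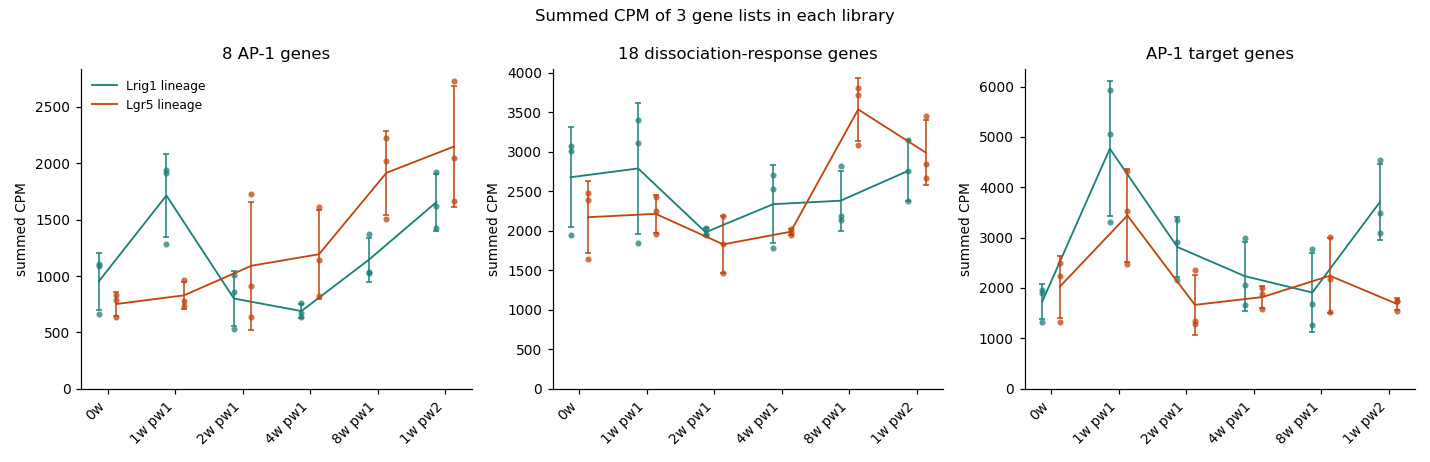
Summed CPM (vertical axis) of the 8 AP-1 genes, of 18 genes of the dissociation response and of AP-1 target genes in each library at the 6 time points (horizontal axis). Points are libraries, lines join means and bars are ± SD (n = 3). In Lgr5 GL cells (orange) the AP-1 sum (1504 to 2222 CPM at 8w pw1) and the dissociation sum (3081 to 3800 CPM) are high together at 8w pw1 and 1w pw2, while the target sum is highest on average at 1w pw1 (2470 to 4316 CPM).

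Junb was the member that changed over the time course in Lrig1 GL cells (adjusted p = 0.0485, edgeR). It read 281, 312 and 355 CPM at 0w and 1296, 558 and 738 CPM at 1w pw1, and at 2w, 4w and 8w pw1 it ran from 208 to 402 CPM. At 1w pw2 it read 412, 402 and 518 CPM. The 3 libraries at 1w pw1 stood above all others of the population. From 0w to 1w pw1 its fitted log2 difference was 1.45 ± 0.33 (adjusted p = 0.0940 by edgeR's quasi-likelihood test), called by DESeq2 and edgeR's likelihood ratio test. From 1w pw1 to 1w pw2 it was -0.96 ± 0.33 (adjusted p = 0.433 by the quasi-likelihood test), with no overlap. Junb was the single member called, where 1.66% of all 14306 genes were called. The call was close to the threshold, and 15 of 18 fits that left out a library called no member, and 4 of 8 members had an unadjusted p under 0.05 against 20.5% of all genes.

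Fos in Lrig1 GL cells varied widely between libraries of 1 time point. It had 1, 213 and 319 counts at 0w (0.513, 86.5 and 204 CPM) and 0, 75 and 690 counts at 2w pw1. At 1w pw1 it read 189, 152 and 364 CPM and at 1w pw2 366, 329 and 608 CPM. All 3 libraries at 1w pw2 lay above all of 0w, yet with this spread the log2 difference of 2.16 ± 1.26 was not called (adjusted p = 0.367). Fosb read 1.03, 10.2 and 66.6 CPM at 0w and 52.4, 34.4 and 83.5 CPM at 1w pw2, which overlap. The summed dissociation list also overlapped between 0w (1948 to 3071 CPM) and 1w pw2 (2375 to 3143 CPM) in this population. Over its 18 libraries Pearson's r of log2 CPM with that sum was 0.73 for Fosb and 0.57 for Fos. For the other members it ran from 0.09 (Fosl1) to 0.44 (Junb). The part of dissociation in these levels was not tested either.

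Fosl1, which encodes Fra-1, a subunit known from migrating and wound-edge keratinocytes, was present in some Lrig1 GL groups and without reads in others. It had 0, 0 and 0 counts at 0w, 15, 9 and 0 at 1w pw1, 11, 3 and 27 at 2w pw1 and 68, 0 and 0 at 4w pw1. At 8w pw1 it had 4, 0 and 0 counts, and at 1w pw2 44, 44 and 17. Reads were thus found in all 3 libraries only at 2w pw1 and 1w pw2. Against the floor over the 0w group, the mean at 1w pw2 (16.1 ± 4.80 CPM, SD, n = 3) was at least 32.1-fold higher and that at 1w pw1 at least 16.2-fold higher, with adjusted p = 0.121 and 0.319 by edgeR's quasi-likelihood test. DESeq2 and edgeR's likelihood ratio test called the difference at 1w pw2. Fosl1 in Lgr5 GL cells instead averaged 21.1 ± 15.7 CPM before injury, then 35.4 ± 9.81 (1w pw1) and 10.3 ± 5.69 (1w pw2). The difference between the populations in its change from 0w to 1w pw2 was not called by edgeR's quasi-likelihood test (adjusted p = 0.0914), though it was by DESeq2 (0.00357) and the likelihood ratio test (0.00485), in a comparison where 0.155% of all genes were called.

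The remaining members of Lrig1 GL cells showed smaller or lower values. Fosl2, which encodes Fra-2, averaged 314 ± 48.2 CPM before injury, 389 ± 60.2 at 1w pw1, 178 ± 28.9 at 4w pw1 and 422 ± 70.3 at 8w pw1 (SD, n = 3; adjusted p over the time course 0.0565). Its 3 libraries at 4w pw1 (154 to 210 CPM) lay below all 3 at 0w. Jun averaged 168 ± 109 CPM before injury, 116 ± 5.90 at 2w pw1, 93.1 ± 26.7 at 4w pw1 and 326 ± 64.1 at 1w pw2. The libraries before injury (96.5, 293 and 115 CPM) were wide apart and overlapped all of these groups. Jund was lower than at 0w (24.3 ± 2.49 CPM) in every library of every later group, down to 10.6 ± 1.43 CPM at 8w pw1 (adjusted p = 0.195). In these Lrig1 GL libraries the mitochondrial share of counts was 10.9 to 14.4% at 8w pw1 against 3.15 to 5.38% at 0w, and Jund had r = -0.56 with that share over 18 libraries. The mean GC content weighted by counts was 45.9 to 46.5% at 8w pw1 against 49.3 to 49.7% at 0w, and Jund had r = 0.65 with it. The part of both in the levels of Jund was not tested. Atf3 ran from 0 to 40 counts in a library, with 0, 4 and 35 counts at 0w and 40, 8 and 10 at 1w pw2.

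Against 0w no member was called at any single time point in Lrig1 GL cells by edgeR's quasi-likelihood test. DESeq2 and edgeR's likelihood ratio test called Junb at 1w pw1 (adjusted p = 0.00197 and 0.00939) and Fosl1 at 1w pw2 (0.0177 and 0.0256). At 1w pw1, 2 members (Fosl1 and Junb) were higher and 1 (Atf3) lower at an unadjusted p under 0.05, against 5.97% and 5.07% of all genes, and 0.217% of genes were called. At 1w pw2, where 1.24% of genes were called, Fosl1 alone had such a p (10.7% of all genes were higher), and 3 members (Fos, Fosl1 and Junb) did not overlap on the higher side, against 13.9% of all genes, and Jund on the lower side, against 10.4%. Unadjusted p-values under 0.05 were also found for Fosl1, higher at 2w pw1 (5.85% of all genes) and, through replicate a alone, at 4w pw1 (4.01%). They were found for Fosl2, lower at 4w pw1 (4.36%), and for Jund, lower at 8w pw1 (10.7%). Of all genes 0%, 0.0419% and 2.86% were called at these 3 time points. The median log2 difference of the 8 members was 0.25 at 1w pw1, -0.46 at 2w pw1, -0.62 at 4w pw1, 0.17 at 8w pw1 and 0.72 at 1w pw2, while that of all genes stayed between -0.06 and -0.01. DESeq2 called no member at 2w, 4w or 8w pw1. These comparisons share the 0w libraries. Libraries at 1w pw2 and 0w also differed without overlap. The mean GC content weighted by counts was 46.7 to 47.7% at 1w pw2 against 49.3 to 49.7% at 0w. Genes detected were 16762 to 17171 against 15666 to 16332. Keratinocyte markers summed to 16691 to 18542 CPM against 20140 to 24107 CPM. The 7 upper hair follicle markers summed to 4752 to 5751 CPM against 8918 to 14548 CPM. The mitochondrial share overlapped. The part of these in the results was not tested.

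The weeks after the 2 wounds were also compared in Lrig1 GL cells. From 1w pw1 to 1w pw2, where 0% of genes were called, Junb was lower and Atf3 higher at an unadjusted p under 0.05 (3.01% and 5.86% of all genes). DESeq2 called Junb (log2 difference -0.99, adjusted p = 0.0485). From 8w pw1 to 1w pw2, 4 members (Fos, Fosb, Fosl1 and Junb) lay higher in every library, against 9.02% of all genes, and none was called by edgeR, where 0.00699% of genes were called. Fosl1 alone had an unadjusted p under 0.05 there (adjusted p = 0.858; 3.08% of all genes were higher).

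The make-up of the AP-1 transcripts per length also differed. The Jun family of Lgr5 GL cells held 83.4 to 83.9% of the summed CPM per kb of the 8 genes at 1w pw2, and 72.6 to 87.4% at 0w. The Lrig1 GL share of this family was 54.5 to 59.0% at 1w pw2 and 62.8 to 87.5% at 0w, and the Fos family held 39.5 to 45.03%, mainly as Fos (27.1 to 36.7%). The Jun family shares of the 2 populations overlapped at 0w and at 1w, 2w and 4w pw1. They did not overlap at 1w pw2, nor before the second wound at 8w pw1. At 8w pw1 they were 76.8 to 86.5% in Lgr5 GL and 59.4 to 76.5% in Lrig1 GL cells. Per kb, the Lgr5 GL ratio of Jun to Junb was 0.373 to 0.494 at 0w, 0.741 to 1.33 at 2w pw1, 0.685 to 1.40 at 4w pw1, 0.316 to 0.548 at 8w pw1 and 0.711 to 1.05 at 1w pw2. Every library at 2w pw1, 4w pw1 and 1w pw2 lay above every library at 0w and 8w pw1. Junb of Lrig1 GL cells exceeded Jun in every library, and the ratio was lowest on average at 1w pw1 (0.0406 to 0.322). These shares are descriptions without a test.

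**Figure D4:**
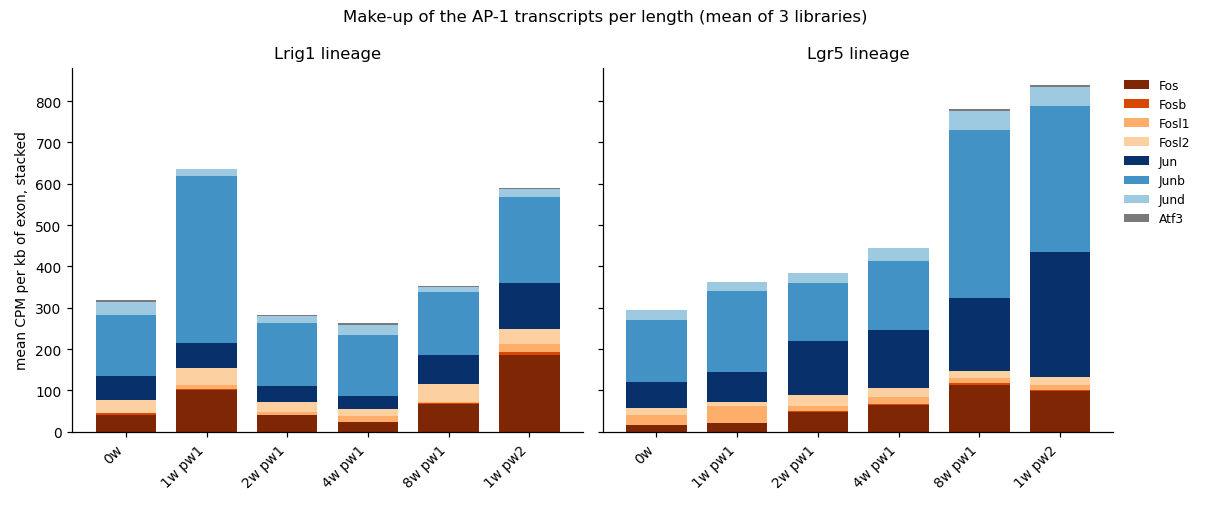
Mean CPM per kb of unshared exon (vertical axis, stacked; n = 3 libraries a bar) of the 8 AP-1 genes at each time point (horizontal axis), Lrig1 GL on the left and Lgr5 GL on the right, with Fos family genes in browns, Jun family genes in blues and Atf3 in grey. On the left, Junb is the tallest block of every bar and reaches its highest mean at 1w pw1 (406 CPM per kb). In Lgr5 GL cells Jun and Junb together hold most of the bar at 1w pw2 (301 and 353 CPM per kb).

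Genes around AP-1 were described from lists chosen with these data known. Of 24 genes known as AP-1 targets in keratinocytes or other cells, 19 were tested in Lrig1 GL cells, and at 1w pw1 10 were higher and none lower at an unadjusted p under 0.05 (5.97% and 5.07% of all genes), with a median log2 difference of 2.14 against -0.05 for all genes. One was called, where 0.217% of all genes were. It was Sprr2a1, a cornified envelope gene with near-identical copies that can share its reads, at 1.84 ± 2.65 CPM at 0w and 181 ± 124 CPM at 1w pw1 (adjusted p = 0.0288). At 1w pw2 Sprr2a1 (192 ± 19.3 CPM, adjusted p = 0.0175) and Mmp3, a matrix metalloproteinase, were called, the latter with no count at 0w and at least 27.2-fold above the floor (adjusted p = 0.0285), where 1.24% of all genes were called. Krt6a, the keratin of activated keratinocytes, was called over the time course (adjusted p = 0.0223), at 606 ± 60.1 CPM at 0w and 2673 ± 861 CPM at 1w pw1. Mmp3 was also called at 8w pw1 (adjusted p = 0.0180), at 24.9 ± 11.99 CPM.

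As a list, the targets of Lgr5 GL cells were high at another time than 6 of the 8 AP-1 members. Fosl1, not among these 6, was highest on average at 1w pw1 (35.4 ± 9.81 CPM), as was the target sum. Of 21 targets tested, 6 were higher and none lower at 1w pw1 at an unadjusted p under 0.05 (6.79% of all genes were higher), with a median of 1.1995. At 8w pw1 and 1w pw2, where 6 AP-1 members were higher, 2 and 1 targets were higher and 0 and 3 lower, with medians of 0.02 and -0.03 (at 1w pw2 2.78% of all genes were lower). The 1 target higher at 1w pw2 was Ccnd1 (log2 difference 1.56 ± 0.31, adjusted p = 0.399, edgeR). From 1w pw1 to 1w pw2, 10 targets were lower and none higher at an unadjusted p under 0.05 against 5.68% of all genes, with a median of -1.93, and none was called by edgeR. Sprr2a1 was called at 1w pw1 (0.989 ± 0.863 CPM at 0w, 76.0 ± 115 CPM at 1w pw1, adjusted p = 0.0434) and Ccnd1, cyclin D1, at 4w pw1 (34.3 ± 5.79 against 115 ± 18.7 CPM, adjusted p = 0.0319). Cdkn1a, the cell cycle inhibitor p21, was called over the time course (adjusted p = 0.04997) and highest at 8w pw1, at 266 ± 19.3 CPM against 129 ± 18.7 at 0w. The 22 targets tested between the populations at 0w had a median log2 difference of -1.64 in Lrig1 GL against Lgr5 GL cells. That of all genes was -0.04, and 10 of the 22 lay above 0. Of the 22 targets, 3 were called as different between the populations, against 2.90% of all genes. The 3 were Timp1 and Mmp3 (no count in Lrig1 GL cells, 25.7 ± 6.99 and 47.2 ± 43.5 CPM in Lgr5 GL cells) and Ccnd1 (higher in Lrig1 GL cells, adjusted p = 0.0295). Timp1 and Mmp3 are also made by fibroblasts, whose markers were higher in the same libraries, and their part was not tested.

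Regulators of AP-1 gave few calls, as did all genes. At most 2.86% of all genes were called in a comparison within a population, and 2.90% between the populations at 0w. At such shares a list of 6 to 18 genes without a call says little about the list. Among 16 other leucine zipper partners, of which 12 (Lrig1 GL) and 13 (Lgr5 GL) were tested, Mafk, a small Maf protein, fell by 2.49 ± 0.41 on the log2 scale at 1w pw1 in Lgr5 GL cells (54.1 ± 7.03 to 9.43 ± 4.51 CPM, adjusted p = 0.0136), and at 1w pw2 it exceeded that level by 2.05 ± 0.40 (adjusted p = 0.0362). Maf was higher at 8w pw1 than at 0w in Lrig1 GL cells, at 937 ± 376 against 159 ± 37.3 CPM (adjusted p = 0.0161). Of 18 MAP kinase genes tested, none was called within a population, and at 0w Map2k4, a kinase upstream of JNK, was 1.76 ± 0.36 higher in Lrig1 GL cells (adjusted p = 0.00633). Of 6 serum response factor genes tested none was called within a population. Srf itself was lower in Lrig1 GL than in Lgr5 GL cells at 0w (4 counts at most in a Lrig1 GL library, adjusted p = 0.0416). In Lrig1 GL cells 2 dissociation genes, Hspa1b (whose near-identical copy Hspa1a can share its reads) and Hsp90aa1, were called higher at 8w pw1, where 2.86% of all genes were called, and Hsp90aa1 at 1w pw2 (adjusted p = 0.0425). At 8w pw1 4 others of the 18 were lower at an unadjusted p under 0.05 (10.7% of all genes were lower). Of the 18, 7 lay above 0, and the median log2 difference was -0.45.

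The genes whose levels ran most like those of Fos and Jun over the 18 libraries of a population were named by Pearson's r of log2(CPM + 1), as a description. In Lgr5 GL cells the first for Fos were Fosb (r = 0.90), Slc15a2 (0.85), Jun (0.81), Ier2 (0.76) and Prkra (0.74) among 10717 genes. For Jun they were Tcf20 (0.81), Fos (0.81), Arid1b (0.80), Zfr (0.79) and Chd4 (0.78). In Lrig1 GL cells no AP-1 gene was among the first 5 for either, although Fosb (r = 0.830 with Fos) came close to the fifth gene of Fos. Gnal (0.90), Acvr1 (0.87), H60c (0.86), Fam135a (0.85) and Tmem161b (0.834) came first for Fos, and Zfp850 (0.87), Afap1 (0.80), Tulp4 (0.78), Slc35f6 (0.76) and Tcf4 (0.75) for Jun, among 9255 genes. Points share the time point with 2 others of their group, and the Lrig1 GL values for Fos rest in part on its 2 libraries with at most 1 count.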

How the data were processed

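Counts per gene were deposited by the authors as whole-number read counts, 1 table per population, made per the labels and methods with Trim Galore 0.5.0, HISAT2 and featureCounts on exons of GENCODE M20 (GRCm38), from Smart-seq2 libraries without molecular identifiers or strand. The authors pooled no replicates. Of the 36 library columns, 15 matched 1 labelled sample and 21 matched a group only. The methods describe replicates as separate mice, but the labels do not tie libraries to mice, so p-values measure the spread between these libraries.

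Genes were kept with edgeR's filterByExpr (minimum count 10), scaled by TMM and tested with edgeR's quasi-likelihood test (edgeR 4.0.16, R 4.3.3; prior count 0.125) in 1 model of 6 time points per population, and in 1 model of all 12 groups for contrasts between populations. P-values were Benjamini-Hochberg adjusted over all genes tested, 14306 for Lrig1 GL, 18025 for Lgr5 GL and 16153 for both. Library totals and the 3-count floor set the precision. Differences are log2 ± SE, and levels are CPM ± SD. The scripts were tested on simulated data. DESeq2 1.42.0, limma 3.58.1 (voom), sva 3.50.0, other filters and scalings, and leaving out each library were alternatives.

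The members and lists were chosen with earlier results of these data known. All 8 members are named. From the other lists up to 4 genes each were to be named, those with an adjusted p under 0.05, smallest first. For likeness, the 5 genes with the highest Pearson's r were taken among genes with a mean of at least 20 counts, without symbols that start with Gm or end with Rik. Promoters came from RefSeq (7 of 8 members matched).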

Additional observations from a re-analysis of the deposited data

How the results depend on the processing

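No result for a single member changed sign. Of 1455 alternative values for 44 single-member results, 1417 kept their direction and side of the threshold, 6 lost a call and 32 gained one. The counts of members called were less stable. For the Lrig1 GL time course (1 called), DESeq2 size factors gave 2, DESeq2 and both populations in 1 model 3 each, and the edgeR likelihood ratio test 4, while no filter, limma-voom, surrogate variables, a removed GC trend and the replicate block gave 0, and leaving out libraries gave 0 to 2. For the Lgr5 GL time course (1 called), DESeq2 gave 6, the likelihood ratio test 5, voom and the model of both populations 2 each, surrogate variables 0 and left-out libraries 1 to 3. From 1w pw1 to 1w pw2 in Lgr5 GL cells (1 called), DESeq2 gave 5, the likelihood ratio test 4, surrogate variables 0 and left-out libraries 0 to 1. For 1w pw2 against 0w in Lgr5 GL cells (0 called), DESeq2 gave 2, and the filter at 5 CPM, the likelihood ratio test, voom, surrogate variables and the GC trend 1 each, with 0 to 1 over left-out libraries. At 8w pw1 in Lgr5 GL cells DESeq2 and the likelihood ratio test gave 2 each, and at 4w pw1 DESeq2 gave 1. In Lrig1 GL cells (0 called), DESeq2 and the likelihood ratio test gave 1 each at 1w pw1 and at 1w pw2, the model of both populations 1 at 1w pw2, and DESeq2 1 from 1w pw1 to 1w pw2. Between populations at 0w (1 called), the replicate block gave 0 (Fosl1, adjusted p = 0.163) and left-out libraries 0 to 1. For the difference in the change from 0w to 1w pw2 (0 called), DESeq2 and the likelihood ratio test gave 1 each and left-out libraries 0 to 1, where Fosl1 was called without Lrig1 GL 4w pw1 replicate a (adjusted p = 0.0337). For the difference in the change between the weeks after each wound, voom gave 1. The cause of these shifts was not tested.

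Replicate numbers did not pair the libraries, since the correlation of deviations between libraries of the same number averaged -0.00644 for Lrig1 GL libraries and 0.00393 for those of Lgr5 GL, and 2 and 5 of 18 libraries correlated best with their own number. Without Lrig1 GL 4w pw1 replicate a, Fosl1 had no reads at 4w pw1 or 0w, and no value was computed. With a common biological coefficient of variation of 0.698 and 0.662 and 3 libraries a group, differences of low-count members such as Atf3, Fosb and Fosl1 carry wide errors, and a missed call does not show that levels were alike.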
